A study of Mus musculus with 6 samples.

Results

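The genes described here are 9 members of the regulator of G protein signalling (RGS) family, Rgs1, Rgs2, Rgs3, Rgs10, Rgs12, Rgs13, Rgs14, Rgs19 and Rgs22, in tuft cells sorted from the mouse ileum. They were chosen by name, with earlier results of these data known, and all 9 were found among the 23420 genes of the expression table. RNA sequencing was performed on 6 libraries, labelled as mouse replicates 1 to 6, which form a single group without a control or a treatment. The mice were C57BL/6J animals carrying the Gfi1b-eGFP reporter (Gfi1b-eGFP/+ in the study's methods), in which green fluorescent protein (GFP) is made from the locus of Gfi1b, a transcription factor gene. Gfi1b marks tuft cells within the epithelium and is also active in blood lineages. The sort took cells that carried GFP and the epithelial antigen EpCam and lacked the leukocyte antigen CD45. The labels give no age, and the study's methods give 1 range of young adult ages for its mice, not an age per library. Tissue came from the distal ileum without Peyer patches. Because no other condition or cell type was sequenced, the question addressed here is which RGS genes were present and how they ranked against one another within each library.

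RGS proteins bind activated G protein alpha subunits and speed up the hydrolysis of GTP, which ends the signal of a G protein-coupled receptor. They are grouped by the sequence of their RGS domain into an R4 class of mostly short proteins, an RZ class, an R7 class that works with the beta subunit Gnb5, and an R12 class whose larger members also carry a GoLoco motif that binds inactive alpha subunits. Tuft cells use G protein-coupled receptors and the taste pathway to sense luminal signals.

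Expression was deposited as TPM, the transcript abundance scaled to 1 fixed total per library and corrected for transcript length, so levels of different genes can be compared within a library. TPM keeps no read number. The depth of the libraries is therefore unknown, and a gene listed at 0 cannot be given a detection limit. Between 13044 and 13308 genes per library were listed above 0, and the ribosomal RNA precursor Rn45s took 23.1% to 32.6% of the TPM. All 12 tuft cell marker genes found, of a list of 13, were above 0 in every library, with a summed level of 6457 to 11345 TPM. Genes of other epithelial cells were present too: a list of 6 Paneth cell genes summed to 3560 to 21409 TPM, 7 goblet cell genes to 1053 to 5118 TPM and 7 enterocyte genes to 7700 to 16260 TPM, so RNA of a single cell type cannot be assumed, and a smaller number of cells and less RNA per cell cannot be told apart in these bulk samples. The part of such RNA in the levels below was not tested.

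Rgs13 was by far the most abundant member. This short R4 protein, which is also known from germinal centre B cells and mast cells, had 902 ± 165 TPM (SD, n = 6), with a lowest library at 718 TPM, a median of 884 TPM and a highest library at 1141 TPM. Replicate 4 was highest and replicate 3 lowest, and the whole range spanned 1.59-fold. Rgs13 ranked between 65th and 178th of all genes in a library, and 113 genes of the table, Rgs13 included, had a mean at least as high. It made up 65.2% to 74.2% of the summed TPM of the 9 members (median 68.8%). Its level equalled 8.98% to 14.9% of the summed TPM of the tuft cell markers.

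Rgs2, an R4 protein known for its preference for Gq alpha subunits, was second. It ranged from 192 TPM through a median of 244 TPM to 261 TPM, with a mean of 235 ± 24.9 TPM (SD, n = 6). Replicate 5 was lowest and the other libraries lay close together. The level of Rgs13 was 3.10 to 4.61 times that of Rgs2 in the same library; the lowest library of Rgs13 lay above the highest of Rgs2.

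Rgs13 and Rgs2 are neighbours in the genome. Of the 22 genes of the RGS family considered, 12 lie on chromosome 1, and 5 of these (Rgs2, Rgs13, Rgs1, Rgs21 and Rgs18, in this order) form a cluster of 776 kb on the minus strand that holds no other protein-coding gene in GENCODE M21 (GRCm38, the assembly also called mm10). Rgs2 lies at chr1:143999338-144004161, Rgs13 at chr1:144138654-144177372 and Rgs1 at chr1:144242296-144249242, with 134 kb between Rgs2 and Rgs13 and 64.9 kb between Rgs13 and Rgs1. These 3 genes of the cluster held 85.1% to 91.2% of the TPM of the whole family in every library, although Rgs1 had a level far below its neighbours. Rgs18, at the other end, was listed at 0 in 5 libraries and at 0.10 TPM in replicate 3, and Rgs21 was not analysed here.

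The sequences before the start sites of these abundant neighbours are shown because they are opposite in base composition, and that of Rgs10, a member near 0, is set beside them. Each run is the 250 bases before the start from the RefSeq promoter table (GRCm38.p6, minus strand, written 5′ to 3′), with every CpG dinucleotide in capitals. They lie at chr1:144177373-144177622 for Rgs13, chr1:144004150-144004399 for Rgs2 and chr7:128418173-128418422 for Rgs10.
Rgs13: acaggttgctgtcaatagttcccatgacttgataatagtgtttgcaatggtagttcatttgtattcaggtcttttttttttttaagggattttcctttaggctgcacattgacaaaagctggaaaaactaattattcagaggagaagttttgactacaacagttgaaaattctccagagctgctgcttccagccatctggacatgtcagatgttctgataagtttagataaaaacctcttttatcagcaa
Rgs2: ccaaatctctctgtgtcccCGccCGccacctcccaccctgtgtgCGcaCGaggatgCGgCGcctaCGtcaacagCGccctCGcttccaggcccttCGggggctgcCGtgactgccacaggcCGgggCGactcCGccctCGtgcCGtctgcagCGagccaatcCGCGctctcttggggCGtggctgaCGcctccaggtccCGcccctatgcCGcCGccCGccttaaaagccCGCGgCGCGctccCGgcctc
Rgs10: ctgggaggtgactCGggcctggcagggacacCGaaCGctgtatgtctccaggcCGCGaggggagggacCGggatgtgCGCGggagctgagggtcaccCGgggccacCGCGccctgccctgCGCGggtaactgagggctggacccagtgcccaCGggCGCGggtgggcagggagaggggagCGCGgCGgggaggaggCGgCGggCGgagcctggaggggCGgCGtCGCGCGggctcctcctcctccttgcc

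The run of Rgs13 has no CpG and a GC content of 36%, that of Rgs2 has 30 CpG and 72.4% GC, and that of Rgs10 has 27 CpG and 76.4% GC. Over the 32851 promoter windows of the table the median was 6 CpG. No CpG was found in 7.87% of windows, 94.1% had fewer than Rgs2 and 91.4% fewer than Rgs10. The CpG-rich runs shown belong to an abundant member and to one listed at 0 in most libraries. Other members had windows of unlike CpG content, with 34, 20 and 4 CpG for Rgs19, 14 and 3 for Rgs12, and 7 and 3 for Rgs3. Which start was in use is not known, and a relation of CpG content to level was not tested. Windows were found for 6 of the 9 members, Rgs2, Rgs3, Rgs10, Rgs12, Rgs13 and Rgs19, which together had 10 windows. The TATA box letters TATAAA, searched on both strands over the whole 300 bases, were in 2 of these windows, both of Rgs3, and in 13.6% of all windows. The octamer ATGCAAAT, the recognition sequence of POU factors such as the tuft cell factor Pou2f3, was in none of the 10 windows and in 1.74% of all windows. At so low a share, absence from 10 windows was likely beforehand and says nothing about Pou2f3 at these genes.

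Rgs3 and Rgs1 were the remaining R4 members and were much lower than Rgs13 and Rgs2. Rgs3, whose longer isoforms carry further domains ahead of the RGS domain, ranged from 10.5 TPM through a median of 14.96 TPM to 29.2 TPM, with a mean of 17.5 ± 7.69 TPM (SD, n = 6). Its highest libraries were replicates 2 and 6, and replicates 4 and 5 were lowest. Of the 25-base words in its annotated transcripts, 12.9% also occur in other genes, almost all of them in the annotated gene Gm5763, which was not analysed here. The effect of this on the level of Rgs3 was not tested. Rgs1, best known as a brake on chemokine receptors in lymphocytes, ranged from 6.64 TPM through a median of 16.8 TPM to 27.6 TPM, with a mean of 16.8 ± 6.84 TPM (SD, n = 6). Replicate 1 was lowest and replicate 4 highest.

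Because Rgs1 and Rgs13 are also lymphocyte genes and Rgs13 a mast cell gene, markers of these cells are given beside them. All 12 genes of a T lymphocyte list were above 0 in at least 1 library and 7 in all 6, and their sum ran from 34.5 TPM in replicate 1 to 235 TPM in replicate 6. Gzma, the largest part of the sum in replicate 6, had 10.4 TPM in replicate 1 and 157.7 TPM in replicate 6. The other genes of the list did not share 1 course. Gzmb (30.1 TPM) and Itgae (16.2 TPM) were also highest in replicate 6, Cd8a in replicate 5 (8.42 TPM) and Cd3d in replicate 4 (4.16 TPM). In replicate 1, Itgae had 9.43 TPM and Cd3d 3.85 TPM. Rgs1, like the sum, was lowest in replicate 1, but was highest in replicate 4, where the sum was 65.0 TPM. Whether lymphocyte RNA took part in the level of Rgs1 was not tested. Of the B lymphocyte genes, Ms4a1, which encodes CD20, was listed at 0 in every library, and Cd79b, Pax5, Cd79a, Fcer2a and Cr2 were each above 0 in some libraries and reached at most 2.42, 2.32, 1.99, 1.43 and 0.78 TPM, against at least 718 TPM of Rgs13. Of 9 mast cell genes, Ms4a2, Mcpt4, Tpsb2 and Cma1 were listed at 0 in every library. The mast cell list reached 100.2 to 158.2 TPM mainly through Kit (100.2 to 157.5 TPM), a receptor gene that is not restricted to mast cells. In replicate 4, where Rgs13 was highest, Fcer1a was listed at 6.06 TPM and Cpa3 at 4.86 TPM, both at 0 elsewhere, and Mcpt1 had 10.9 TPM there, 10.9 TPM in replicate 3 and at most 2.39 TPM in the other libraries. Mcpt2 did not exceed 0.23 TPM. The part of such cells in the level of Rgs13 was not tested. Ptprc, which encodes CD45, the antigen used to remove blood cells in the sort, had 112 ± 42.0 TPM (SD, n = 6). It was highest in replicate 1 (171 TPM) and lowest in replicate 6 (74.2 TPM). The summed tuft cell markers were also highest in replicate 1 and lowest in replicate 6, and the T lymphocyte sum was the reverse. The source of the Ptprc RNA was not tested.

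Rgs22 was the third most abundant member. It encodes a large protein outside the main classes that has been little studied beyond the testis. Its levels ran from 67.4 TPM through a median of 84.7 TPM to 100.4 TPM, with a mean of 85.3 ± 12.2 TPM (SD, n = 6). Replicate 3 was lowest and replicate 1 highest. Rgs2 was 2.45 to 3.26 times as abundant in the same library. The gene spans chr15:36009479-36140400 on the minus strand, and its longest coding transcript has 28 exons.

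Rgs19, also called GAIP, was the only RZ member with more than traces. It ranged from 9.69 TPM through a median of 23.1 TPM to 43.1 TPM, with a mean of 23.6 ± 13.0 TPM (SD, n = 6). Replicate 1 was highest, and replicates 4 and 6 lay lowest, at 9.69 and 10.8 TPM. The range of 4.45-fold was the widest among the 7 members above 0 in all libraries.

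Of the R12 members, Rgs14 was present in every library and the others were not. Rgs14, a scaffold with Ras-binding domains and a GoLoco motif, ranged from 13.9 TPM through a median of 19.6 TPM to 43.0 TPM, with a mean of 22.7 ± 10.3 TPM (SD, n = 6). The mean rests in part on replicate 5, the highest library, which lay far above the next at 21.6 TPM, and it was 18.6 TPM without that library. Rgs10, a small R12 protein without a GoLoco motif, was listed at 4.68 TPM in replicate 1, at 2.77 TPM in replicate 3 and at 0 in replicates 2, 4, 5 and 6. Rgs12, the largest R12 protein, reached 1.77, 2.22, 0.30 and 0.87 TPM in replicates 3 to 6, with 0 listed for replicates 1 and 2. At unknown depth, a value of 0 does not show that the transcript was absent.

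**Figure D1:**
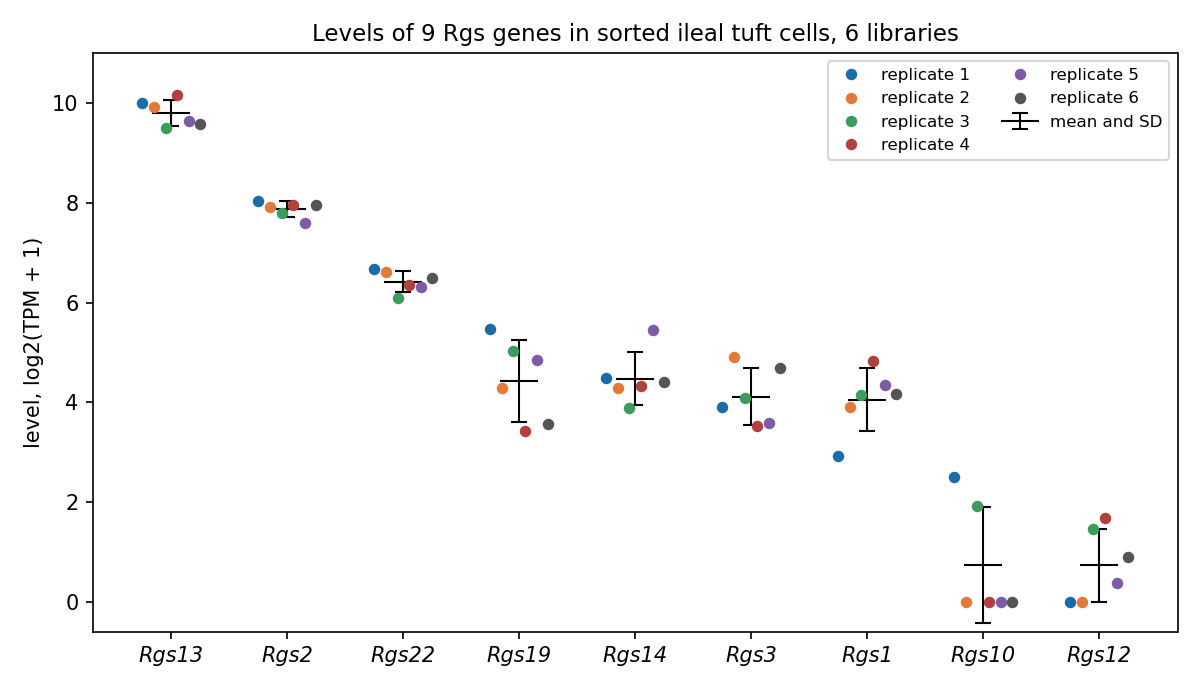
Levels of the 9 Rgs genes on the log2(TPM + 1) scale, ordered by mean TPM, with 1 point per library (6 libraries, coloured by replicate), the mean as a horizontal line and the SD as an error bar. Rgs13, Rgs2 and Rgs22 stand apart at the top with tight points, 4 genes overlap in the middle, and Rgs10 and Rgs12 reach 0 in some libraries.

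To ask which members could be ranked, every pair of members was compared by the within-library difference in log2(TPM + 1). All 64 ways of flipping the signs of the 6 differences gave an exact permutation test (two-sided). The 36 pairs were adjusted together by the Benjamini-Hochberg method. In 29 of 36 pairs, the same gene was higher in all 6 libraries. Over all pairs of the 15707 genes above 0 in at least 1 library, this held for 69.2%, so an order kept in every library was common among genes in general. Each of these 29 pairs had p = 0.03125 in the exact test, the smallest that 6 libraries allow, and an adjusted p of 0.0388. The other 7 pairs had unadjusted exact p-values of 0.3125 or more. The members therefore fell into 3 single ranks at the top, a middle set of 4 genes and a lowest set of 2 genes.

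Rgs13 exceeded Rgs2 by 1.93 ± 0.217 on the log2 scale (SD, n = 6), Rgs2 exceeded Rgs22 by 1.45 ± 0.163, and Rgs22 exceeded Rgs19, the next by mean, by 1.99 ± 0.852. Each of these steps was seen in 6 of 6 libraries. None of the 6 pairs among Rgs19, Rgs14, Rgs3 and Rgs1 passed the test. Rgs19 differed from Rgs14 by -0.04 ± 0.906 (exact permutation p = 0.969, adjusted p = 0.996), Rgs14 from Rgs3 by 0.36 ± 0.924 (exact p = 0.469, adjusted p = 0.544) and Rgs3 from Rgs1 by 0.06 ± 0.949 (exact p = 0.875, adjusted p = 0.926; SD, n = 6 for each). These differences were smaller than their spread between libraries, and a p above the threshold does not show that their levels were equal. Each of these 4 genes was higher than Rgs10 and than Rgs12 in all 6 libraries. Rgs10 and Rgs12 could not be ordered, with Rgs10 higher in replicates 1 and 3, both listed at 0 in replicate 2, and Rgs10 lower in replicates 4 to 6 (exact permutation p = 1, adjusted p = 1).

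**Figure D2:**
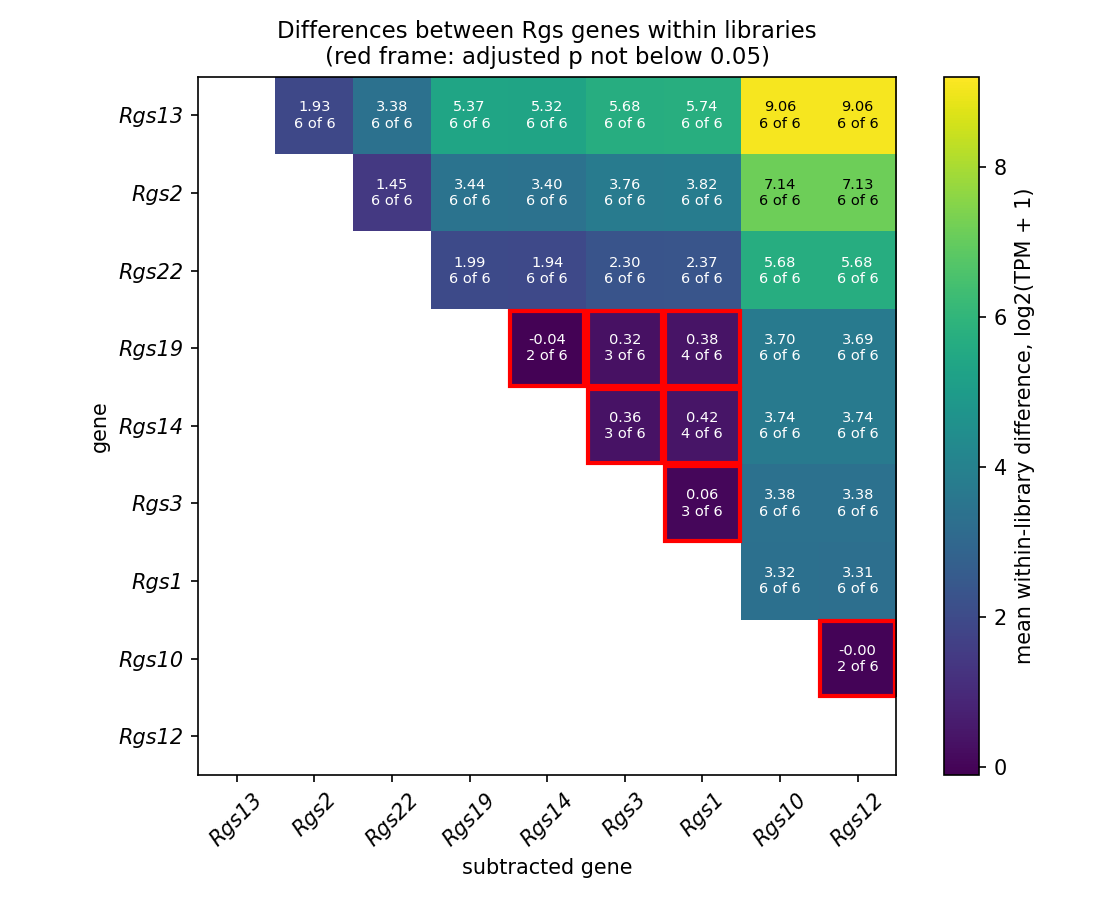
Mean within-library difference in log2(TPM + 1) for each of the 36 pairs, the gene in the row minus the gene in the column, with the number of libraries of 6 in which the row gene was higher. Red frames mark the 7 pairs that did not pass, 6 among Rgs19, Rgs14, Rgs3 and Rgs1 and 1 between Rgs10 and Rgs12. The sizes in the Rgs10 and Rgs12 columns depend on the pseudocount of 1.

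The 9 genes were not the whole family. Of 22 family genes listed by class, 21 were found in the table, 18 were above 0 in at least 1 library, 10 in all 6, and 11 had a mean of at least 1 TPM. Of all 23420 genes, 15707 were above 0 in at least 1 library. Means of 1 to 10, 10 to 100 and 100 TPM or more were held by 5046, 5932 and 1054 genes. Passing 1 TPM was thus common among genes in general. The 9 genes nevertheless held 98.6% to 99.4% of the TPM of the family. As they were chosen with earlier results of these data known, this high share may follow in part from the choice. The R4 class held 86.8% to 92.2% of it, Rgs22 with its class mate Rgsl1 held 5.21% to 7.42%, the R12 class 1.32% to 3.64%, the RZ class 0.636% to 2.92% and the R7 class 0.301% to 1.26%.

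Of the 12 other family genes in the table, 3 were above 0 in every library. Rgs16, an R4 gene, had 6.03 ± 3.15 TPM, with replicate 5 highest at 10.2 TPM and replicate 6 lowest at 1.87 TPM. Rgs11, an R7 gene, had 5.57 ± 3.55 TPM and ranged from 0.53 TPM in replicate 3 to 11.4 TPM in replicate 6. Rgs9, the R7 gene of photoreceptors and striatal neurons, had 1.88 ± 1.51 TPM (SD, n = 6 for each). All of these had a mean above those of Rgs10 and Rgs12. Reads of 138 exon bases of Rgs11 overlap the gene Arhgdig in the annotation and may be shared with it. Rgs7 was listed at 0.94 TPM in replicate 3 and at 0 elsewhere, and Rgs6, Rgs17, Rgs18, Rgs20 and Rgsl1 did not exceed 0.20 TPM in any library. Rgs4, Rgs5 and Rgs8 were listed at 0 in every library. Rgs5 is a gene of pericytes, and Rgs4 and Rgs8 are mainly neuronal.

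**Figure D3:**
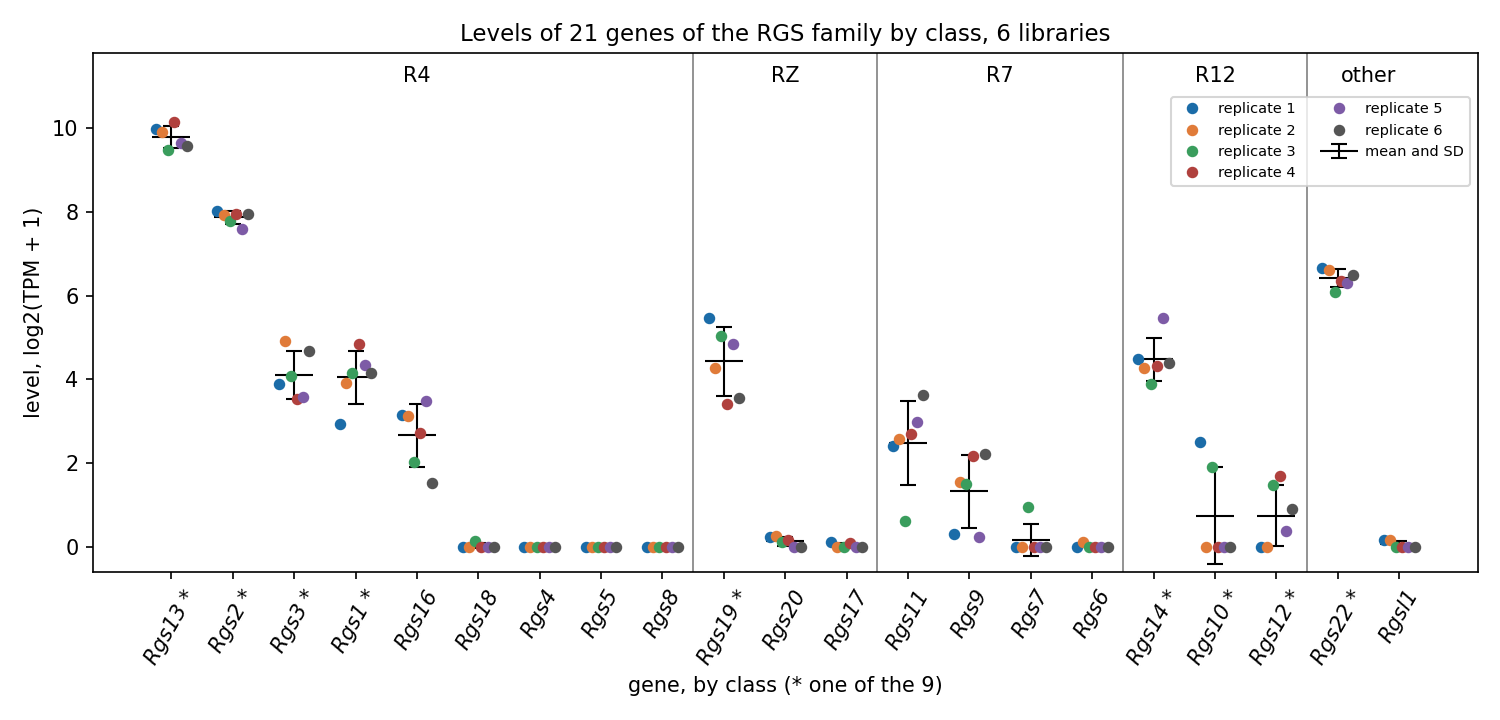
Levels of the 21 family genes found, on the log2(TPM + 1) scale, grouped by class, with 1 point per library (6 libraries) and the mean with SD. Stars mark the 9 genes described here. The R4 class holds the highest genes (Rgs13 and Rgs2) as well as 3 genes at 0 in every library (Rgs4, Rgs5 and Rgs8).

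The abundant members were also the steady ones. The SD of log2(TPM + 1) between libraries was 0.160 for Rgs2 and 0.262 for Rgs13, against a median of 0.341 over the 1054 genes with a mean of 100 TPM or more, and 3.04% and 23.4% of these genes, respectively, had a lower SD. Rgs22 had an SD of 0.209, against a median of 0.468 over the 5932 genes with a mean of 10 to 100 TPM, and 4.77% of those genes had a lower SD. In the same range of means, the SD was 0.523 for Rgs14, 0.574 for Rgs3, 0.631 for Rgs1 and 0.825 for Rgs19, and 60.2%, 67.7%, 74.5% and 89.0% of genes, respectively, had a lower one. These 4 thus varied more than the median gene with a mean of 10 to 100 TPM. Their means lay low in this range and that of Rgs22 high. The median SD over all genes was lower in each higher range of means. The part of level within the range in this contrast was not tested. The SD is a description of these 6 libraries and was not tested.

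**Figure D4:**
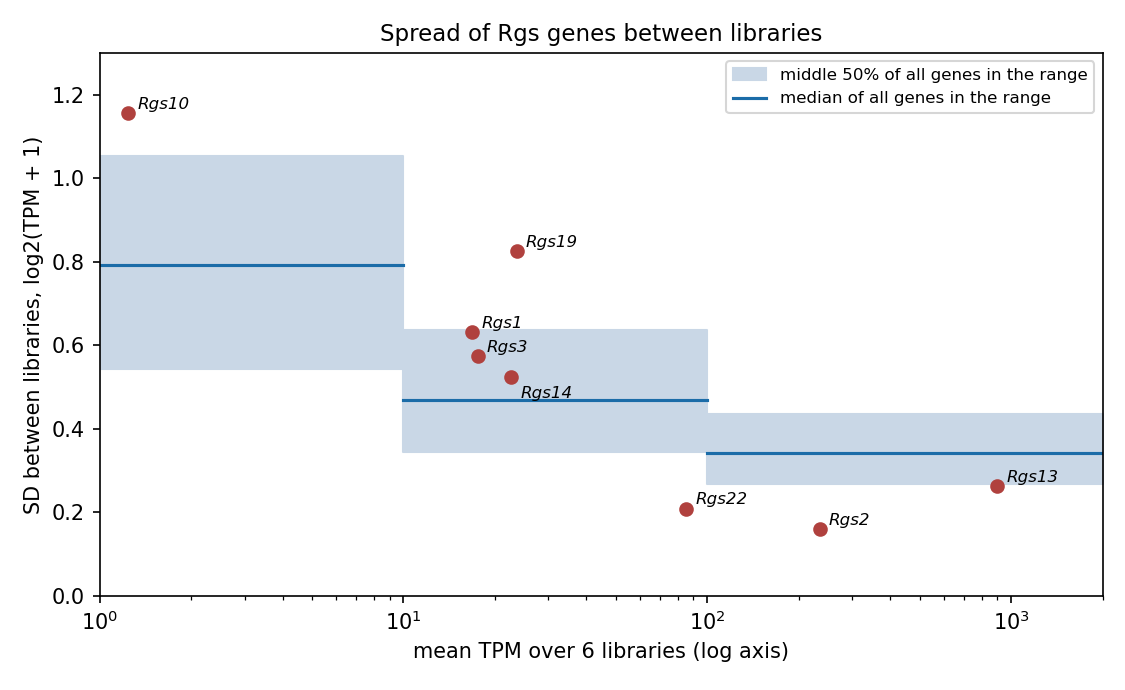
SD between the 6 libraries on the log2(TPM + 1) scale against mean TPM on a log axis, for the 8 members with a mean of at least 1 TPM (red points). Blue lines give the median SD of all genes with a mean of 1 to 10, 10 to 100 and 100 TPM or more, and bands hold the middle 50% of those genes. Rgs2, Rgs22 and Rgs13 lie below their bands, Rgs19 and Rgs10 above.

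The members did not all rise and fall together. Among the 7 members averaging 10 TPM or more, the highest Pearson's r of log2(TPM + 1) was 0.635, for Rgs2 with Rgs22. For Rgs13 with Rgs2 it was 0.564. Rgs13 and Rgs22 were both lowest in replicate 3, where they lay 0.31 and 0.32 below their own means on the log2 scale, and Rgs2 was lowest in replicate 5, 0.28 below. The members of the middle set each had a different highest library. Rgs19 was highest in replicate 1, 1.03 above its mean, Rgs3 in replicate 2, 0.80 above, Rgs1 in replicate 4, 0.78 above, and Rgs14 in replicate 5, 0.98 above. Replicate 1 held both the highest value of Rgs19 and the lowest of Rgs1, which lay 1.12 below its mean. As these deviations run in opposite directions within a library, a scaling factor common to all genes of a library cannot remove them. After rescaling by median-of-ratios factors, Rgs13 and Rgs22 were again lowest in replicate 3, and Rgs2 was then lowest in replicate 3 as well.

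**Figure D5:**
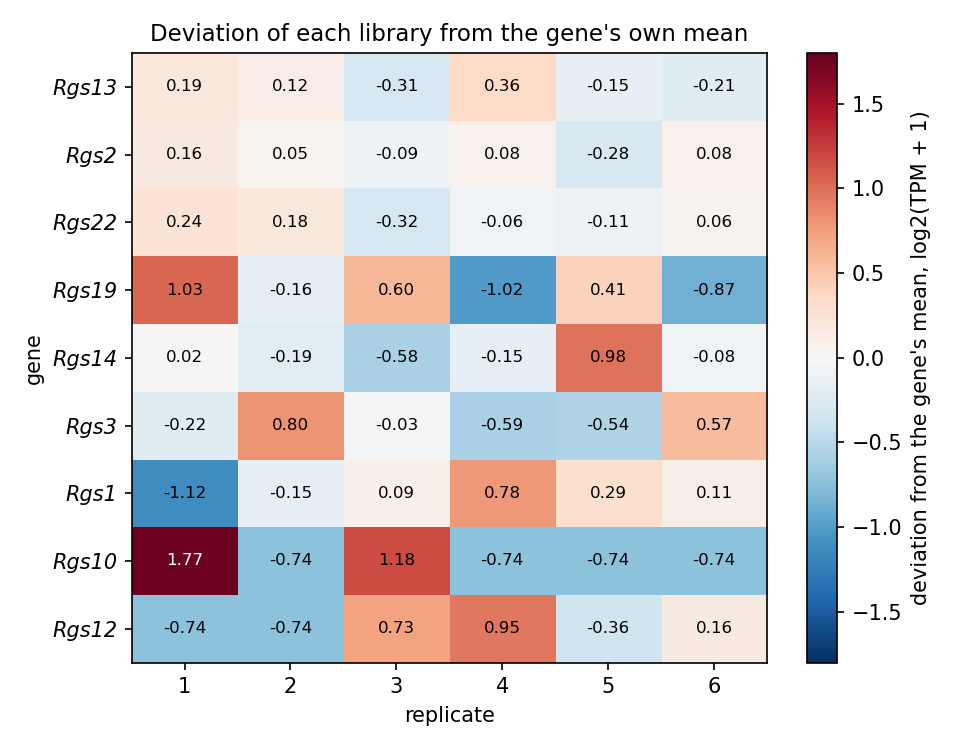
Deviation of each library from the mean of the same gene, on the log2(TPM + 1) scale, for the 9 genes (rows) and replicates 1 to 6 (columns). Deviations of Rgs13, Rgs2 and Rgs22 stay within 0.36, while Rgs19, Rgs14, Rgs3 and Rgs1 reach their highest values in different libraries.

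The alpha subunits that RGS proteins act on were present at lower summed levels than the family itself. Of 8 genes of the Gi/o class, 4 had a mean of at least 1 TPM, led by Gnai2 (205 ± 67.1 TPM), the gustducin gene Gnat3 (146 ± 42.0 TPM) and Gnai3 (71.7 ± 21.6 TPM), and of 4 genes of the Gq class 3 did, led by Gna11 (124 ± 28.3 TPM), Gnaq (7.67 ± 1.81 TPM) and Gna14 (4.73 ± 3.79 TPM; SD, n = 6 for each). Both classes together summed to 467 to 712 TPM, and the TPM of the RGS family was 1.93 to 2.83 times as high in the same library (median 2.32). Rgs13 alone exceeded the sum of both classes in all 6 libraries. Against all 4 alpha classes, with Gs and G12/13 added, the RGS family was 1.24 to 1.95 times as high. These are levels of RNA, and protein was not measured. A mean of at least 1 TPM was common among all genes, as given above, and this holds for the counts of the partner lists below as well.

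Partners of the R7 class, to which none of the members belongs, were low, while genes related to the family ranged more widely. Of the R7 partners, Gnb5, without which R7 proteins are unstable, had 3.45, 8.46 and 8.12 TPM in replicates 1 to 3, only 0.31 TPM in replicate 6, and was listed at 0 in replicates 4 and 5. The membrane anchors Rgs7bp and Rgs9bp did not exceed 0.35 TPM, and Gpr158 and Gpr179 were listed at 0 in every library. Of 15 other genes whose proteins hold an RGS-like domain, 14 had a mean of at least 1 TPM. The leading ones were the RhoGEF gene Arhgef1 (60.3 ± 12.9 TPM) and the receptor kinase genes Grk4 (53.4 ± 12.9 TPM) and Adrbk1 (also called Grk2; 33.4 ± 8.13 TPM; SD, n = 6 for each), so that by mean level 3 members were above all 15 of these genes. Of 6 genes found with GoLoco motifs or of the Ric8 chaperones, 5 had a mean of at least 1 TPM, and Gpsm2 was highest at 16.6 ± 12.6 TPM. Of the arrestins, which end receptor signals at the receptor, Arrb1 had 40.5 ± 8.87 TPM (SD, n = 6 for each) and Arrb2 did not exceed 0.70 TPM.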

How the data were processed

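RNA from sorted tuft cells was measured in 6 libraries of 1 group, named by the replicate number in their labels. According to the methods, libraries were made by a modified SMART-Seq2 protocol. Paired-end reads were aligned with Bowtie to the UCSC mm10 transcriptome, and the authors deposited gene expression as TPM from RSEM. No strand setting or gene filter was stated there. Replicates are labelled as mice. TPM was used as deposited, on the log2(TPM + 1) scale.

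Pairs of members were compared within libraries by an exact permutation test that flips the signs of the differences (two-sided), with Benjamini-Hochberg adjustment over 36 pairs. Alternatives were pseudocounts of 0.1 and 0.01, values under 0.1 TPM set to 0, median-of-ratios rescaling and rescaling without Rn45s and Gm20594. Further alternatives were an exact Mann-Whitney test without pairing, each library left out, other thresholds and denominators, and values within replicates 1 to 3 and 4 to 6. Functions were tested on simulated data. Results of some marker genes are not reported here. Named were the 9 members, family genes above 0, the leading genes of the partner lists, marker genes where a result turns on them, and the 3 genes most like each member, taken among genes averaging 10 TPM or more. The members and lists were chosen with earlier results of these data known. Gene models (GENCODE M21, GRCm38) and promoters (RefSeq, GRCm38.p6) were matched by symbol, and they are not the authors' models. Computation was done in Python 3.11.15 (scipy 1.17.1, pandas 2.3.3, numpy 2.4.6), and plots were drawn with matplotlib 3.10.9.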

Additional observations from a re-analysis of the deposited data

Results flagged for a closer look

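Of 132 measures, 15 had a highest or lowest library whose gap to its neighbour exceeded Dixon's 95% critical value. Chance would flag about 1 in 20, or 6.6, if the measures were independent and normally distributed. They are not independent, since several share a gene or a library. A gene above 0 in only 1 library is always flagged, as were Rgs18, Rgs6, Rgs7, Cd79b and Fcer1a. The count of 15 therefore cannot be judged against 6.6, and no excess or lack of it over chance can be stated.

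Rgs14 gave 4 of the 15, all in replicate 5. It reached 43.0 TPM there, while no other library passed 21.6 TPM, a gap of 0.735 of the whole range, and it held 3.66% of the TPM of the 9 members against at most 1.71% elsewhere. The difference Rgs2 minus Rgs14 was 2.13 on the log2 scale in replicate 5 and at least 3.54 in the other libraries, and Rgs22 minus Rgs14 was 0.85 and at least 2.03. Without replicate 5 the mean of Rgs14 was 18.6 TPM in place of 22.7 TPM.

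Of the other RGS genes, Rgs7 (0.94 TPM in replicate 3), Rgs18 (0.10 TPM in replicate 3) and Rgs6 (0.08 TPM in replicate 2) stood out because they were listed at 0 in the other 5 libraries. Among partner genes, Grk4 was lowest in replicate 3 at 27.7 TPM against at least 55.1 TPM elsewhere, Gpsm2 was highest there at 41.0 TPM against at most 18.4 TPM, and Arrb2 was highest in replicate 1 at 0.70 TPM. Among marker genes, the enteroendocrine gene Chgb was highest in replicate 5 at 59.6 TPM against at most 13.8 TPM elsewhere, though the sum of its list of 9 genes was highest in replicate 2. Itgam was highest in replicate 3 at 20.7 TPM against at most 14.5 TPM, Cd79b was listed at 2.42 TPM only in replicate 3, Fcer1a at 6.06 TPM only in replicate 4, and Cd79a was highest in replicate 4 at 1.99 TPM.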

How the results depend on the processing

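The count of 29 pairs past the adjusted threshold was 29 under each pseudocount, the filter on low values, both rescalings and the exact Mann-Whitney test. That test ignores the pairing by library and treats the values of both genes as independent. Its adjusted p was 0.00269 for the 4 neighbouring pairs that passed, which cannot be set beside the paired test. Neither a pseudocount nor a rescaling can change which gene of a library is higher, so these settings could not alter the count of pairs in the same order. In the paired test such a pair always has the smallest exact p, so the same 29 had to pass again. The filter changed no member, as none had a value above 0 and below 0.1 TPM. These settings are therefore no check on the count past the threshold. Leaving out a library cannot lower the count of pairs in the same order, and no further pair joined the 29. With 5 libraries the smallest exact p is 0.0625, so no count past the threshold could be had there. No library could be matched across groups because the 6 libraries form 1 group. Genes were compared within libraries except in the Mann-Whitney test. Rescaling without Rn45s and Gm20594, which raises every value, moved 6 means by more than their SD, to 1312 TPM for Rgs13, 342 TPM for Rgs2, 124 TPM for Rgs22, 33.8 TPM for Rgs14, 25.5 TPM for Rgs3 and 24.8 TPM for Rgs1. The difference between Rgs1 and Rgs10 grew from 3.32 to 7.77 on the log2 scale with a pseudocount of 0.01, as Rgs10 has values of 0. Without replicate 1, the mean of Rgs10 went from 1.24 to 0.554 TPM. The count of family genes at a mean of at least 1 TPM lay between 10 and 12 when libraries were left out and was 12 and 9 at thresholds of 0.5 and 2 TPM. Rgs19 exceeded Rgs14 by 0.70 within replicates 1 to 3 and was 0.79 lower within replicates 4 to 6. The other neighbouring pairs that did not pass also changed sign between these sets. Rgs14 minus Rgs3 was -0.08 and 0.80, Rgs3 minus Rgs1 was 0.64 and -0.52, and Rgs10 minus Rgs12 was 0.98 and -0.99. Where a difference averages close to 0 over all 6 libraries, equal sets with means away from 0 must take opposite signs. These sets differ in Gm20594 (1.56% to 2.13% and 5.18% to 5.64% of TPM) and are too small for a test. A link of Gm20594 to the sign changes was not tested.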

Other observations

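For each of the 7 members averaging 10 TPM or more, the genes with the most similar course over the 6 libraries were sought by Pearson's r of log2(TPM + 1) among the 6985 other genes above that level. These are the highest of very many values over 6 points that share libraries and scaling, so they are a description, without a test. For Rgs13 they were the cyclic nucleotide phosphodiesterase gene Pde2a (r of 0.975), Antxr2 (0.974) and Gcnt1 (0.971), with Spearman's rho of 0.943, 1 and 0.886, and 9 genes reached 0.95. For Rgs2 they were the receptor phosphatase gene Ptpra (0.996), Napepld (0.993) and Mrpl14 (0.986), with rho of 0.829, 1 and 0.943, and 16 genes reached 0.95. For Rgs22 they were Ttc36 (0.998), the amino acid transporter gene Slc1a4 (0.993) and Taf4a (0.987), each with rho of 1, and 35 genes reached 0.95, the most for any member.

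For the less abundant members, the most similar genes were Grpel2, Slc33a1 and Abat for Rgs19 (r of 0.990 to 0.984, rho of 1), Abr, Zswim7 and Mrps26 for Rgs3 (r of 0.985 to 0.974, rho of 0.943 to 1), Ppp1r12c, S100a10 and Lrp1 for Rgs1 (r of 0.977 to 0.966, rho of 0.943) and Ifih1, Sec16a and Swt1 for Rgs14 (r of 0.979 to 0.963). For Rgs14, rho was lower, at 0.6 for Ifih1, 0.551 for Sec16a and 0.829 for Swt1. No member was among the 3 genes most like another member, and only 4 genes reached 0.95 with Rgs14, whose course is set by its high value in replicate 5.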
